A study of Homo sapiens with 2 samples.

Results

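The surface antigens of B-cell stages described here are 9 genes whose proteins are used to tell naive, germinal centre, activated and plasma-stage B cells apart: MS4A1, CR2, FCER2, CD38, SDC1, MME, CD24, CD72 and SLAMF7. Members were all probe sets of the deposited table whose platform annotation gave exactly 1 gene symbol from this list. This gave 18 probe sets for all 9 genes, out of 36289 probe sets and 16716 genes with a single symbol. The series holds 2 arrays (Affymetrix Human Genome U133 Plus 2.0) of 1 human lymphoblastoid line, B cells that grow without limit after infection with Epstein-Barr virus (EBV), cultured without any treatment that the labels name. The titles spell the line GM06690 and the growth protocol GM06990. The arrays are replicates 1 and 2 of 1 group, so there is no contrast between conditions and no p-value. The labels do not say whether the replicates came from separate cultures, and the spread between them may be technical.

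A resting naive B cell carries CD20 (MS4A1), CD72 and CD24 together with CD21 (CR2), the complement receptor to which EBV attaches. In the germinal centre B cells take on CD10 (MME) and CD38, on activation they raise CD23 (FCER2), and as plasma cells they lose CD20 and display CD38, CD138 (SDC1) and CS1 (SLAMF7). In EBV-infected B cells the viral protein EBNA2 acts on cellular genes through the DNA-binding protein RBPJ, and CD21 and CD23 are classical genes raised by it.

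Because EBNA2 is recruited by RBPJ, the bases before the start sites of CR2, FCER2 and CD38, which lay above background, and of CD72, which did not, are shown for comparison. Each line gives the 250 bases before the start of the RefSeq transcript (GRCh38.p14), 5′ to 3′ on the strand of the gene, with the motifs found in capitals. The regions are chr1:207454078-207454327 on the plus strand for CR2, chr19:7702132-7702381 on the minus strand for the upstream of 2 FCER2 starts, chr4:15778078-15778327 on the plus strand for CD38 and chr9:35618414-35618663 on the minus strand for CD72.
CR2: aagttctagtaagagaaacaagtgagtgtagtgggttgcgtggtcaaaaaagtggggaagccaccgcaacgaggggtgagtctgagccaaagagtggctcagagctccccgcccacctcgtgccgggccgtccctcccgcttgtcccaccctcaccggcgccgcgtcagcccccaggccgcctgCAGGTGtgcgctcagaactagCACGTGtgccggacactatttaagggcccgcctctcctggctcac
FCER2: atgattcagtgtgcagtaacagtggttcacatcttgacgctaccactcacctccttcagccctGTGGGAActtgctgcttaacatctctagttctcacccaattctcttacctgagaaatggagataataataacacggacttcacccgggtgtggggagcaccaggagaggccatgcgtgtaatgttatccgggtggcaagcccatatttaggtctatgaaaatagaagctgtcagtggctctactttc
CD38: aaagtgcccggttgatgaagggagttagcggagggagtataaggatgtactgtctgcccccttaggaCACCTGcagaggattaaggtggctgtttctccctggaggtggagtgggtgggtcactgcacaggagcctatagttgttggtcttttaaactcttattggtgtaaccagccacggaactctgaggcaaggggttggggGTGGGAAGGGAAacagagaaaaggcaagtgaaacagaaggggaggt
CD72: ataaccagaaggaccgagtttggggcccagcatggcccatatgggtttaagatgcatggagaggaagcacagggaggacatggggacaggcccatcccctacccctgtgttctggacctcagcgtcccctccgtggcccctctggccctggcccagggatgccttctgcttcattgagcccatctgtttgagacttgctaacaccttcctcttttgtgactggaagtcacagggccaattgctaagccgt

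In all, 6 motifs were searched on both strands: GTGGGAA for RBPJ, ATTTGCAT for the octamer factors, GGAANNGAA for Ets and IRF pairs, CAGGTG for E2A, CACGTG for USF and GAGGAAGT for PU.1. The RBPJ letters occurred once in the FCER2 window, with 180 bases between them and the start, and once in the CD38 window, with 39 bases between. In CD38 they overlap the Ets-IRF letters, so the capitals run together there. The CR2 window held 1 CAGGTG and 1 CACGTG, which reads the same on both strands, the CD38 window also held CAGGTG on the minus strand, and neither the CD72 window nor that of the second FCER2 start held any of the 6. Of 34943 such windows in the table, 5.41% held the RBPJ letters, 17.5% CAGGTG, 6.32% CACGTG, 6.58% the Ets-IRF letters, 2.17% those of PU.1 and 1.63% the octamer. The RBPJ letters also occurred in 1 of 3 CD24 windows and were not found in those of CR2, SDC1 or MME. The table had entries for 7 of the 9 genes, 14 windows in all. CAGGTG occurred in 6 of these 14, from CD24, CD38, CR2, MME and SDC1, and the Ets-IRF letters in 2, from CD38 and MME. Windows of 1 gene can overlap, and 2 MME windows share the same CAGGTG, so these are counts of windows and not of separate sites. Matches were thus also found for MME, which was not above background. A match describes these letters, and binding of a factor was not measured.

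Signals are RMA intensities as deposited, with the log2 value beside them, and means are given ± SD of the 2 arrays. The background level of each array was the 95th percentile of 63 genes chosen as restricted to other tissues. It lay at an intensity of 56.8 (log2 5.83) in replicate 1 and 55.8 (log2 5.80) in replicate 2. Of the 63, KRT10 (11.24) and MBP (10.33) read far above it, so the list includes genes with clear signal here. A gene counted as above background when its brightest probe set exceeded the level on both arrays. By this rule 7 of the 9 antigens lay above background and MME and CD72 did not, beside 51.2% of all 16716 genes. Of the 18 probe sets 14 lay above the level on both arrays and 4 on neither, beside 46.5% of all probe sets with 1 symbol. The median signal of the 9 antigens was 9.16 on the log2 scale, beside 6.10 over all genes. In RNA from a whole culture, fewer cells carrying a transcript and less of it per cell cannot be told apart. Probe sets differ in how well they bind, so the signals of different genes do not rank their transcripts.

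**Figure D1:**
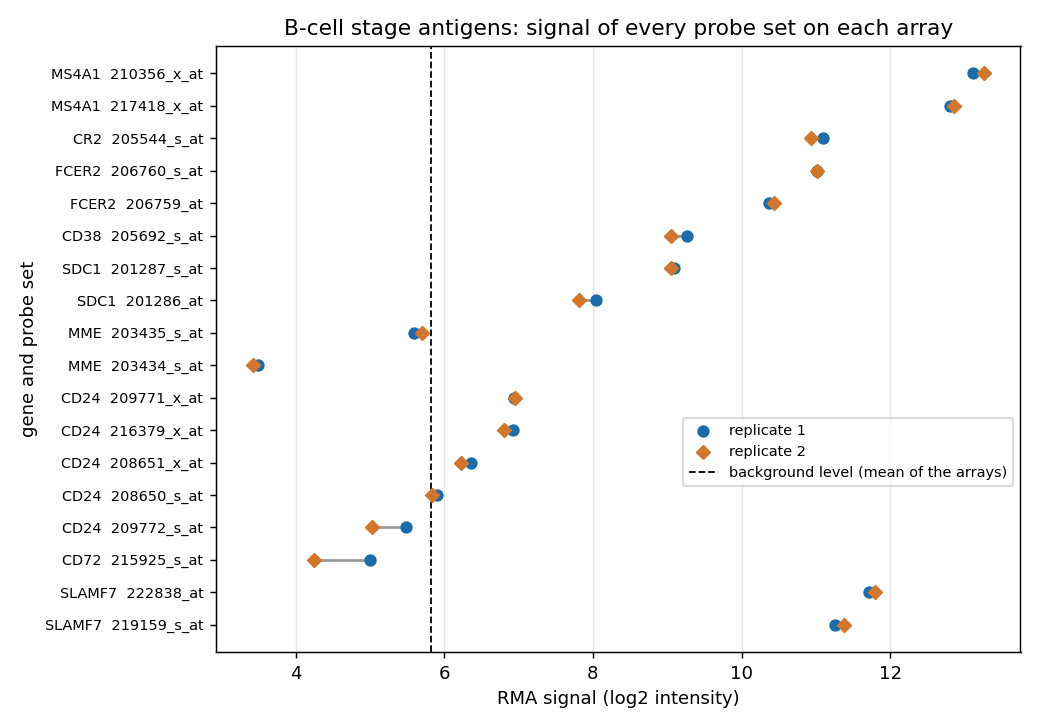
Log2 RMA signal (x axis) of each of the 18 probe sets of the 9 antigens (y axis), with replicate 1 as circles, replicate 2 as diamonds and a grey bar between them; the dashed line is the mean background level of the arrays, 5.82. The probe sets of MS4A1, CR2, FCER2, CD38, SDC1 and SLAMF7 lie to the right of the line on both arrays, those of MME and CD72 to the left, and those of CD24 on both sides.

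Among the antigens of mature and activated B cells, MS4A1, CR2 and FCER2 lay above background by every probe set. CD24 was closer to the level and CD72 below it. MS4A1 encodes CD20, a membrane protein of B cells from the late precursor stage until they become plasma cells. Its probe set 210356_x_at read 8902 in replicate 1 and 9838 in replicate 2, a mean log2 signal of 13.19 ± 0.10 (SD, n = 2). The second MS4A1 probe set, 217418_x_at, read 7195 and 7417 (12.83 ± 0.03). Both lay at least 6.98 above the level on the log2 scale on each array, and both were slightly higher in replicate 2. Both end in _x_at, the suffix for probes that may also match other transcripts.

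CR2, the complement receptor that EBV uses to enter B cells, was read by 1 probe set at 2190 in replicate 1 and 1964 in replicate 2 (11.02 ± 0.11). FCER2 encodes the low-affinity IgE receptor CD23, a marker of activated and EBV-infected B cells. Its probe set 206760_s_at read 2079 and 2073, the smallest difference between the arrays among the 18 probe sets (11.02 with an SD under 0.01). The probe set 206759_at read 1320 and 1391 (10.40 ± 0.05). For both genes each array lay at least 4.54 above the level, by the 1 probe set of CR2 and by both of FCER2.

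The antigens of plasma cells lay above background as well, though CD38 and SDC1 lost that call with the level at percentile 99 of the reference genes (log2 10.68). SLAMF7, a receptor of the SLAM family that binds to itself on neighbouring cells, read 3355 and 3543 with probe set 222838_at (11.75 ± 0.06). Its second probe set, 219159_s_at, read 2446 and 2664 (11.32 ± 0.09). Replicate 2 was the higher array for both SLAMF7 probe sets, by 0.08 and 0.12 on the log2 scale.

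SDC1 encodes syndecan-1 (CD138), a heparan sulphate proteoglycan that binds matrix and growth factors. Probe set 201287_s_at read 545 in replicate 1 and 533 in replicate 2 (9.07 ± 0.02), and 201286_at read 263 and 225 (7.93 ± 0.16). The SDC1 probe sets stood 1.15 apart on the log2 scale, and both were above background on both arrays. Replicate 1 was the higher array for both.

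CD38, an enzyme of the cell surface that breaks down NAD and is carried by germinal centre and plasma cells, read 616 in replicate 1 and 528 in replicate 2 with its 1 probe set (9.16 ± 0.16). It lay at least 3.24 above the level on each array. With MS4A1, SDC1, SLAMF7 and CD38 all above background, transcripts of antigens from both sides of the plasma-cell switch were present in the same RNA. Whether the same cells carried them cannot be told apart from a mixture of cells here.

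CD24 was the closest to the level of the 7 antigens above background, and its probe sets disagreed. It encodes a small protein linked to the membrane by a lipid anchor, present on naive and immature B cells and lost as they become plasma cells. Its brightest probe set, 209771_x_at, read 122.1 in replicate 1 and 123.4 in replicate 2 (6.94 ± 0.01), which was 2.15 and 2.21 times the level. Probe set 216379_x_at read 121.4 and 111.6 (6.86 ± 0.09), and 208651_x_at read 81.8 and 74.4 (6.29 ± 0.10). These 3 carry the _x_at suffix, and CD24 has near-identical copies elsewhere in the genome, so their values are uncertain.

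The other CD24 probe sets were dimmer. Probe set 208650_s_at read 59.8 and 57.2 (5.87 ± 0.05), at most 0.08 above the level, and 209772_s_at read 44.7 and 32.6 (5.25 ± 0.32), below it on both arrays. CD24 was thus above background by 4 of 5 probe sets, the 3 brightest of which may also match other transcripts. It was the 1 antigen with probe sets on both sides of the level. Of the 6 antigens with at least 2 probe sets the other 5 had all on 1 side, while among all 7350 genes with at least 2 probe sets 32.5% had them on both sides.

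MME and CD72 were not above background. MME encodes neprilysin (CD10), a peptidase that marks precursor and germinal centre B cells. Probe set 203435_s_at read 48.4 in replicate 1 and 51.8 in replicate 2 (5.65 ± 0.07), only 0.23 and 0.11 below the level, and 203434_s_at read 11.2 and 10.7 (3.45 ± 0.05). The brighter MME probe set is therefore close to the level, and a lower level, the 75th percentile of those 63 genes, put it above background.

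CD72, a C-type lectin that recruits the phosphatase SHP-1 and holds back signals of the B-cell receptor, read 31.8 in replicate 1 and 19.0 in replicate 2 (4.62 ± 0.53). It lay 0.84 and 1.56 below the level with its 1 probe set, and no second probe set was used here to compare it with. A gene not above the level may still be transcribed.

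The antigens above background differed by less than 1.5-fold between the arrays. The median difference (replicate 2 minus replicate 1) over the brightest probe sets of the 9 genes fell short of 0.01 in size. The median size of the difference was 0.08 on the log2 scale for the 7 antigens above background and 0.10 for all 9. It was 0.10 for all genes, many of which are dimmer, so probe sets of like signal are the closer comparison. CD72 was the 1 of 18 probe sets that differed by more than 1.5-fold, beside 1.29% of all probe sets. Its difference of -0.75 is between signals below the level on both arrays, and it was -0.45, short of 1.5-fold, with 16 added to each intensity before the log2. Of 2710 probe sets with a mean signal within 0.25 of that of CD72, 98.9% differed less. The remaining 17 differed by at most 0.46, the largest being the CD24 probe set below the level.

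**Figure D2:**
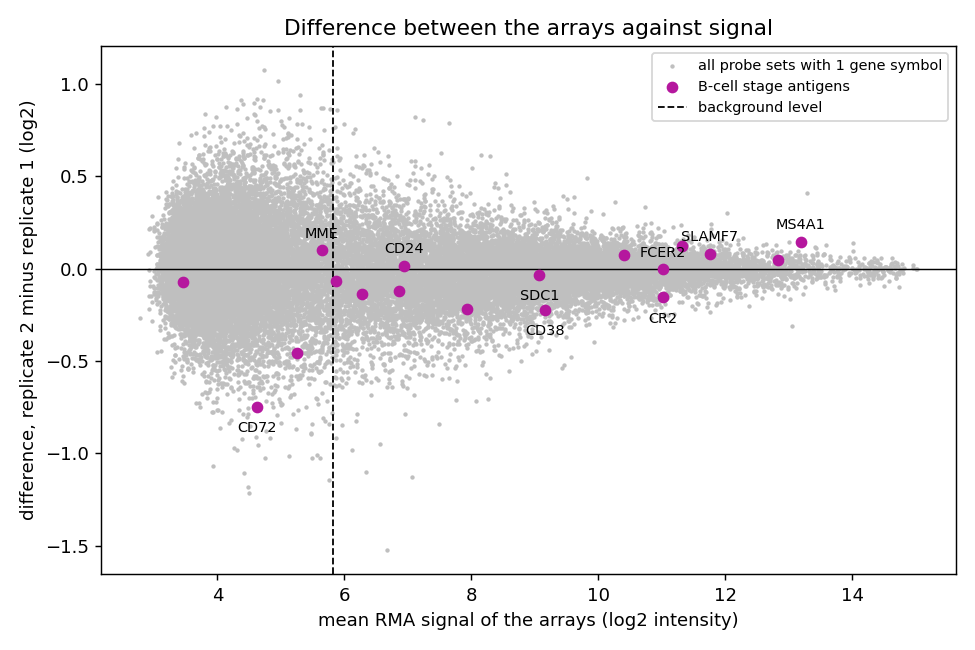
Difference between the arrays (y axis, replicate 2 minus replicate 1, log2) against mean log2 RMA signal (x axis) for all 29493 probe sets with 1 gene symbol in grey and the 18 antigen probe sets in colour; names stand at the brightest probe set of each gene and the dashed line is the background level. CD72 lies at -0.75 in the wide cloud of dim probe sets, and MS4A1 at 0.14 near the upper edge of the narrow cloud of bright ones.

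Small differences of bright probe sets also stood towards the edge of their neighbours. The MS4A1 difference of 0.14 was larger than that of 97.1% of the 140 probe sets of like signal, the CR2 difference of -0.16 than that of 94.3% of 679, and the CD38 difference of -0.22 than that of 94.4% of 1349. In all, 6 of the 18 probe sets, dim ones included, from 6 genes, exceeded 90% of their neighbours in this way, beside 9.91% of all probe sets. Those of CD72 and CD24 (209772_s_at) lay below the level on both arrays. Other probe sets of these genes stood lower: 56.3% for the second of MS4A1, 77.4% for the brightest of SLAMF7 and 6.7% for the brightest of CD24. With 1 pair of arrays this is a description, and the directions were mixed. Of the 6 probe sets those of MS4A1 and SLAMF7 were higher in replicate 2, and those of CR2, CD38, CD72 and CD24 in replicate 1.

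Markers of B cells were present and those of other blood cells were not, apart from 1 gene. All 6 measured B-cell markers were above background by their brightest probe set. Among them were CD79A (11.30 ± 0.03, by 2 of 2 probe sets), CD79B (9.59 ± 0.05, by 1 of 3) and CD22 (8.96 ± 0.06, by 2 of 3). With the median of all probe sets of a gene, 5 of 6 were above. The summed intensities of the B-cell markers were 14664 and 14594 on the arrays. None of 8 T-cell, 6 NK-cell or 7 myeloid markers lay above the level on both arrays. Their summed intensities were 196 and 175 for T cells, 120 and 116 for NK cells and 133 and 151 for myeloid cells, while S100A9 exceeded the level in replicate 2 alone. Of 4 erythroid markers HBB was above (6.17 ± 0.24, by 1 of 4 probe sets). CD3E (4.49), CD14 (3.77) and LYZ (3.72) stood below the level on both arrays. CD38, SLAMF7 and CD24 are also carried by some of these other cells, whose part in their signals was not tested.

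Of the partners of the antigens 8 of 11 measured genes were above background, beside 51.2% of all genes. With the median of all probe sets of a gene 6 of 11 were above, beside 46.7% of all genes. CD21 works in a complex with CD81 (10.89 ± 0.01) and IFITM1 (12.60 ± 0.03), and both were above. The CD72 ligand SEMA4D (9.05 ± 0.24) and the phosphatase PTPN6 (SHP-1, 10.57 ± 0.04) with the adaptor GRB2 (11.40 ± 0.02), which CD72 engages, were above although CD72 itself was not. ADAM10, the protease that sheds CD23 from the cell, read 10.97 ± 0.04.

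The CD38 ligand PECAM1 was above by 2 of 5 probe sets (7.19 ± 0.02) and the CD24 ligand SIGLEC10 by 1 of 2 (6.41 ± 0.16). The adaptors of SLAM receptors were not above: SH2D1B, which SLAMF7 uses in NK cells, read 4.05 ± 0.11, and SH2D1A read 4.32 ± 0.11. HPSE, the heparanase that trims syndecan chains, was not above either (4.96 ± 0.30). SLAMF7 was thus measured with neither of the adaptors listed above background, by all of their 2 and 4 probe sets.

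Of the measured relatives of the antigens in the MS4A, SLAM and syndecan families 8 of 17 were above background, beside the 51.2% of all genes. In the MS4A family, MS4A7 was above (7.22 ± 0.15, by 2 of 3 probe sets) and the other 5 were not: MS4A3 (4.57), MS4A4A (4.30), MS4A6A (5.43), MS4A8 (4.31) and MS4A12 (3.78). In the SLAM family 6 of 8 relatives of SLAMF7 were above: CD48 (13.08 ± 0.04), SLAMF1 (11.48 ± 0.01), SLAMF6 (9.08 ± 0.07), LY9 (6.63 ± 0.37), CD84 (6.44 ± 0.03, by 1 of 6 probe sets) and CD244 (6.09 ± 0.05). SLAMF8 (4.35) and SLAMF9 (4.11) were not. Among the syndecans SDC4 was above (6.65 ± 0.24), and SDC2 (4.73) and SDC3 (4.08) were not.

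**Figure D3:**
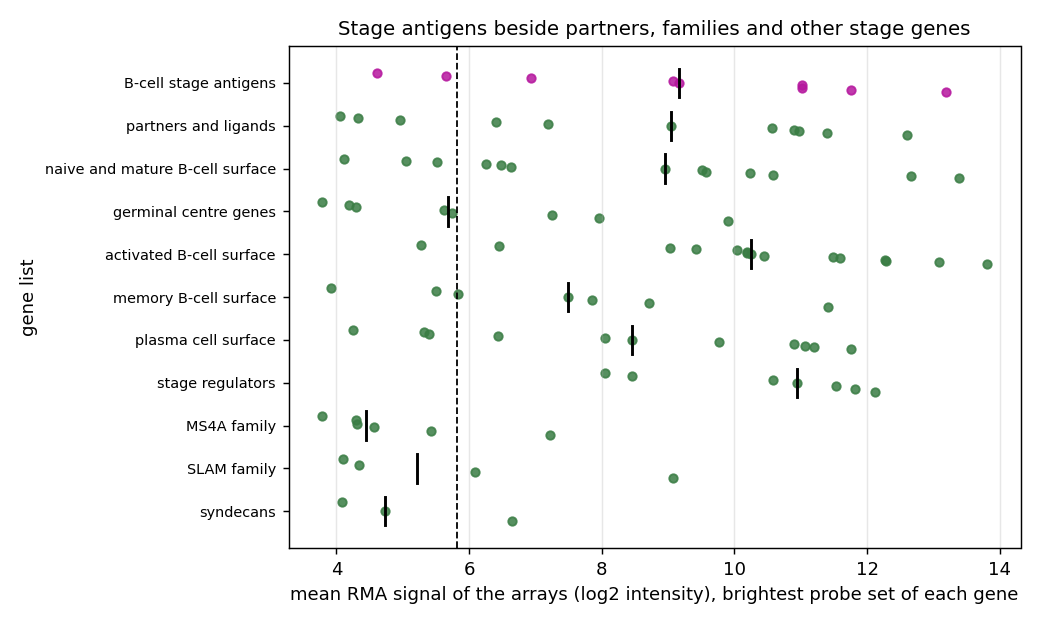
Mean log2 RMA signal (x axis) of the brightest probe set of each gene, as points, for the 9 antigens and 10 further gene lists (y axis); vertical bars are medians and the dashed line is the background level. The germinal centre list has 3 of 8 genes to the right of the line, against 14 of 15 in the activated list and 7 of 9 antigens.

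The further genes of each stage were counted in the same way, beside the 51.2% of all genes. Of the genes of naive and mature B cells 10 of 13 were above background, including CD22, CD37 (10.59 ± 0.05) and CD40 (10.24 ± 0.03), and CD1C (5.51), CCR6 (5.06) and CXCR5 (4.11) were not. Of the activation genes 14 of 15 were above, among them the costimulatory ligands CD80 (10.04 ± 0.04) and CD86 (10.25 ± 0.11) and the marker CD83 (10.45 ± 0.08). IL2RA, a chain of the interleukin-2 receptor, was not above (5.28 ± 0.28).

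The germinal centre list had 3 of 8 genes above background: the chemokine receptor CXCR4 (9.91 ± 0.07), SEMA4C (7.25 ± 0.01) and ROBO1 (7.96 ± 0.05). S1PR2, a receptor that keeps B cells inside the germinal centre, was not (3.79 ± 0.09), as MME was not. At the lower level used for MME this list counted 5 of 8, beside 62.2% of all genes. Of the memory genes 4 of 7 were above, including the receptors CD27 (11.41 ± 0.02) and TNFRSF13B (8.72 ± 0.09). FCRL4 (5.50) and ITGAX (3.92) were not, and CR1, a complement receptor related to CR2, exceeded the level in replicate 1 alone (5.83 ± 0.16).

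Of the plasma cell genes 8 of 11 were above, including TNFRSF17, the survival receptor BCMA (11.76 ± 0.17), and the integrin chain ITGA4 (10.89 ± 0.02), while CD28 (5.40), GPRC5D (4.25) and FCRL2 (5.32) were not. All 7 measured genes listed as regulators of these stages were above. Among them were PAX5 (12.13 ± 0.04, by 1 of 2 probe sets), which keeps B-cell identity, SPIB (8.05 ± 0.27) and IRF8 (10.58 ± 0.04). The transcription factors BCL6 (4.19) and BACH2 (4.30), counted in the germinal centre list, were not above background. RBPJ, named here because its motif was searched, read 10.94 ± 0.12. Many of these genes are also expressed outside the stage they are listed under, so the counts do not assign the culture to a stage.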

How the data were processed

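The authors deposited 1 intensity per probe set and array, made with RMA per the submitters' processing notes, a method that subtracts background, equalizes the distributions of the arrays and combines the probes of each set. The RMA version and a genome build are not given in the sources used here. The deposited intensities ran from 6.29 to 33093, a linear scale, so their log2 was taken. The arrays correlated with a Pearson r of 0.997 and a Spearman rho of 0.987 across 36289 probe sets, which are not independent replicates. The number of arrays limits the precision, and other probe sets of this array type were not analysed here. Of the probe sets 29493 had 1 gene symbol in the platform annotation, 1407 had several and 5389 had none; 29461 were matched by Entrez ID to a RefSeq gene table (GRCh38.p14) for current symbols. For each gene the probe set brightest on average was used.

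The members and lists were chosen with earlier results of these data known. Of 74 reference genes written, 63 were measured. Named were every member probe set, every measured partner and every gene of the family lists, and in the other lists the first 3 measured genes with at most 5 on the rarer side of the level. LY9, SLAMF1, CD48 and CD84, filed under other lists, were added as SLAM relatives after their values were seen. BCL6 and BACH2 were likewise named after their values were seen. No gene was named for likeness of pattern, which 2 arrays cannot show. The code for the calls was tested on simulated data with expressed and unexpressed genes set far apart, which does not bear on genes near the level. Python 3.11.15, pandas 2.3.3 and numpy 2.4.6 were used. Alternatives changed the percentile (75 or 99), the normalization, the pseudocount (16), the probe sets used and the arrays used.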

Additional observations from a re-analysis of the deposited data

How the results depend on the processing

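The count of 7 of 9 antigens above background held after a second quantile normalization, beside 51.2% of all genes. It held with the median of all probe sets of a gene (beside 46.7%) and without either replicate (7 to 7, beside 51.9% and 52%). The count was 8 of 9, beside 62.2% of all genes, with the level at percentile 75 of the 63 reference genes, where MME joined. At that level 3 of 8 T-cell, 1 of 6 NK-cell, 1 of 7 myeloid and 3 of 4 erythroid markers were above. At the 99th percentile the level was 10.68, between the brightest reference genes, KRT10 (11.24) and MBP (10.33), and CD38, SDC1 and CD24 lost their call. There 4 of 9 antigens, 6 of 18 antigen probe sets and 21 of 85 companion genes were above, beside 10% of all genes. Without probe sets ending in _x_at and _s_at only FCER2, SDC1 and SLAMF7 could be measured. Here 3 of 3 genes and 3 of 3 probe sets were above, beside 44.6% of all genes left. In alternatives chosen after seeing the data, leaving KRT10 out of the reference gave 7 of 9 at the 95th percentile, beside 52.1% of all genes. At the 99th (level 8.14) it gave 6 of 9, beside 34% of all genes, where CD24 was lost and 9 of 18 probe sets were above. Without either replicate 14 to 14 probe sets and 58 to 59 companion genes were above, beside 14 and 58. The median size of the difference between the arrays was 0.08 to 0.13 under the alternatives, and CD72 stood at -0.45 with a pseudocount of 16 and at -0.76 after the second normalization. The reference list listed as an alternative was the one used throughout, so it was not run separately. No paired analysis was possible because there is only 1 group.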
